A study of Rattus norvegicus with 11 samples.

Results

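The proteins of the cytosolic ribosome were followed as 44 genes, measured by 50 of the 15923 probe sets of a rat expression array, where single symbols name 10412 genes. A probe set belonged here where the platform annotation gave it 1 gene symbol that starts with Rpl or Rps and a digit, or is Rplp0, Rplp1, Rplp2 or Rpsa, and 8 probe sets of Rps6k kinases were left out. Of the 50, 33 were for the large subunit and 17 for the small subunit. No probe set carried Rplp1 or Rplp2 as its single symbol. A further 34 probe sets list several symbols, of which at least 1 has a form named above, and were used only as a group. Rps6k symbols were not left out of that group.

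Total RNA of rat hippocampus had been hybridised on 11 arrays, 5 from rats on a ketogenic diet and 6 from rats on a control diet. A ketogenic diet is rich in fat and poor in carbohydrate, and it is used against epileptic seizures. The labels used here give no strain, sex, age or duration of feeding and do not say that each array is a separate rat, so each p-value reflects only the spread among these arrays, which may be technical. The title of ketogenic replicate 3 ends in an additional letter that the labels do not explain.

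A ribosome is built from a small subunit, which decodes the mRNA, and a large subunit, which joins amino acids and holds the exit tunnel of the growing chain. Vertebrate mRNAs for ribosomal proteins typically begin with a run of pyrimidines, the 5′ terminal oligopyrimidine motif, and their translation is held together by the mTOR kinase acting through Larp1, a protein that binds such starts. Neurons carry ribosomes in dendrites as well as in the cell body, and ribosomal protein mRNAs are among the abundant mRNAs of hippocampus.

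The pyrimidine run is a sequence feature that the choice of members did not use, so annotated starts of 10 genes are shown first. Entries for annotated starts on the assembly GRCr8 were available for 37 of the 44 genes. Each line gives the gene strand from 15 bases before the annotated start to 15 bases from it on, and capitals mark the longest run of C and T where it has 8 or more bases. The first 7 genes were called higher on the ketogenic diet and hold such a run. Rps6 was called higher and Rpl39 lower without one, and Rpl35, which holds a long run, was not called. Rpl12, Rpl3, Rps3a and Rpsa, also called higher without such a run, are not printed.
Rplp0, chr12:46718376-46718405, minus strand: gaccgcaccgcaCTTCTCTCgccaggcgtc
Rpl4, chr8:73566462-73566491, plus strand: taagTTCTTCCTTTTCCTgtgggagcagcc
Rpl22, chr5:168117946-168117975, plus strand: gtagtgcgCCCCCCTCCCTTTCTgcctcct
Rpl5, chr14:1995211-1995240, minus strand: aCTCTCTTTCCCacgtcgcttgcgtcctgg
Rps23, chr2:23814502-23814531, plus strand: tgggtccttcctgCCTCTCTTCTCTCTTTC
Rps15, chr7:10068101-10068130, minus strand: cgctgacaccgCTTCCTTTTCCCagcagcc
Rps28, chr7:15311319-15311348, minus strand: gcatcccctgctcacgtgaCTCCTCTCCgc
Rps6, chr5:106420526-106420555, minus strand: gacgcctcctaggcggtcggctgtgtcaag
Rpl39, chrX:121195882-121195911, minus strand: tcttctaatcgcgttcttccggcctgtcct
Rpl35, chr3:43165907-43165936, minus strand: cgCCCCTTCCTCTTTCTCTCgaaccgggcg

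A run of 8 or more C or T was found in the window of 21 of the 37 genes (56.8%), against 11.4% of all 33469 entries searched in the same way. On the opposite strand, as a run of A and G on the gene strand, it was found in 1 of the 37 genes, against 13% of all entries. Runs were held by 14 of 25 large subunit genes and by 7 of 12 small subunit genes, and the longest, in Rpl34, had 20 bases. The run and window lengths were set after the sequences had been seen. A run in the window need not cover the annotated start. In Rpl5 the run of 11 bases begins at position -14 and ends before that start, and in Rps28 it begins at base 5 from it. Only 20 of the 37 annotated starts are the outermost start of their gene, so an absent run in a window says nothing of the other starts of that gene.

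The labels ask how gene expression under the ketogenic diet compares with that under the control diet. Intensities were quantile normalized, taken to log2 and fitted with limma over the 11899 probe sets left after the dimmest 25% by mean were set aside, and a probe set with a Benjamini-Hochberg adjusted p under 0.05 is described as called. Of the 50 ribosomal protein probe sets, 44 were tested. On the ketogenic diet 13 of the 44 rose and 1 fell, that is 29.5% and 2.27%, while 8.62% of all tested probe sets rose and 7.87% fell. The median log2 fold change, ketogenic minus control, was 0.12 over the 44 and -0.0041 over all tested probe sets. Changes were small, with log2 fold changes from -0.29 in Rpl39 to 0.62 in Rpl7. In bulk tissue, fewer cells of a type and less RNA per cell cannot be told apart. Diet cannot be told apart from any batch that was handled with it, since the labels name none.

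Signs were mostly positive. Of the 44 tested probe sets, 36 were higher on average on the ketogenic diet (81.8%), against 49.2% of all tested probe sets. The ketogenic arrays were all above the control arrays for 5 members, Rplp0, Rpl22, Rpl3, and 1 probe set each of Rpl7 and Rpsa, and all below them for 0. Over all tested probe sets, 3.91% had every ketogenic array above every control array and 3.08% the reverse. With 1 probe set a gene, 11 of 40 ribosomal protein genes rose and 1 fell, where 8.85% of 8397 genes rose and 8.04% fell. Of the 34 probe sets that list several symbols, at least 1 of them of a ribosomal form, all were tested. In that group 11 rose and 2 fell, with a median of 0.08.

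The ribosomal protein probe sets are bright, and bright probe sets have smaller errors. Their median standard error was 0.066 on the log2 scale, against 0.111 over all tested probe sets. Between log2 signals of 9.40 and 10.52, the quartiles of the members' own mean signals, 22 members were tested and 5 rose with 0 falling. In that band, which was chosen after the data had been seen, 524 other probe sets had a median standard error of 0.0645, and 9.16% of them rose and 8.97% fell. Of the members in the band 81.8% had a positive sign, against 49.2% of the other probe sets in it.

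**Figure D1:**
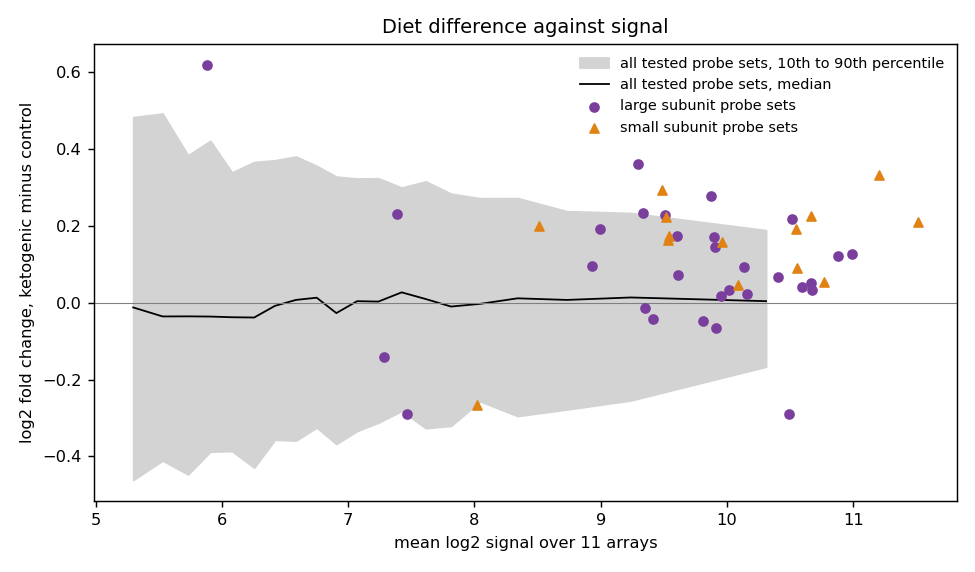
Log2 fold change, ketogenic minus control, against mean log2 signal over 11 arrays, for 30 large subunit probe sets (circles) and 14 small subunit probe sets (triangles). The line and grey area are the median and the 10th to 90th percentile of all tested probe sets in bins of signal; most members lie above 0 at the bright end, and Rpl7 with 0.62 stands at the dim end.

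In the large subunit, 7 of 30 tested probe sets rose (23.3%) and Rpl39 fell, with a median log2 fold change of 0.08 and 23 of 30 positive. In the small subunit, 6 of 14 rose (42.9%) and 0 fell, with a median of 0.18 and 13 of 14 positive. At an unadjusted p under 0.05 limma had 0 small subunit members lower as well. The difference between the subunits was not tested. The mean over the 30 large subunit probe sets on each array, relative to the mean of the control arrays, lay between 0.07 and 0.11 on ketogenic arrays and between -0.04 and 0.06 on control arrays. Over the 14 small subunit probe sets it lay between 0.07 and 0.22 on ketogenic arrays and between -0.08 and 0.05 on control arrays. In neither subunit did the diets overlap in these array means, and the highest small subunit mean was that of ketogenic replicate 2.

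**Figure D2:**
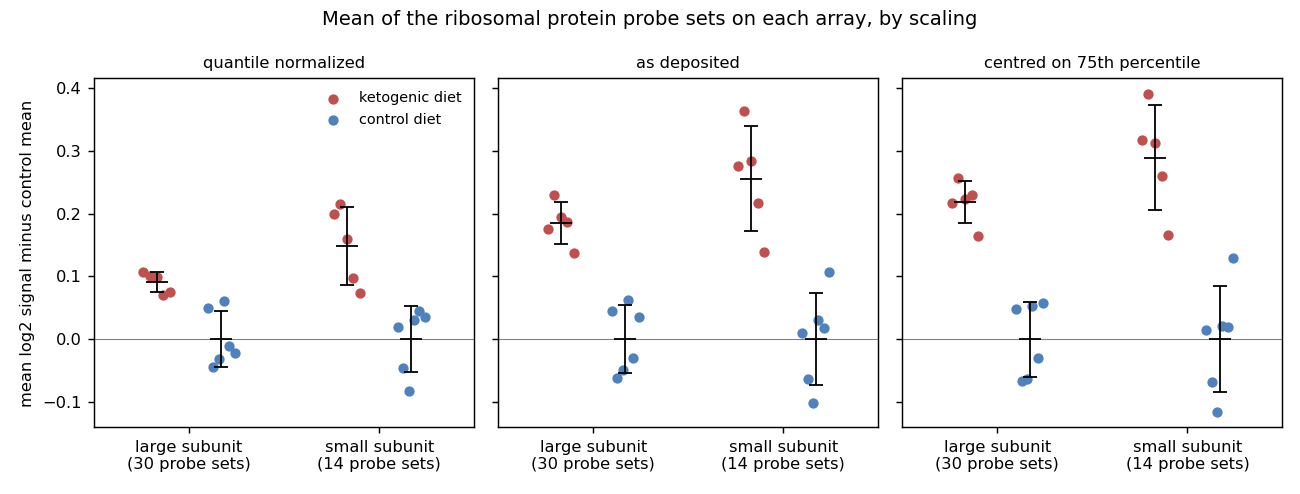
Mean log2 signal of the large and the small subunit probe sets on each array, minus the control mean, for 5 ketogenic arrays (left of each pair) and 6 control arrays; bars give the mean and SD. Ketogenic arrays lie above control arrays under quantile normalization, as deposited and after centring on the 75th percentile, with larger differences under the last pair of scalings.

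The size of the shift depended on the scaling, and its direction was the same under the 4 scalings tried. As deposited, 28 members rose, with medians of 0.18 in the large and 0.29 in the small subunit, and 9.04% of all tested probe sets rose. After centring each array on its 75th percentile, 30 members rose, with medians of 0.22 and 0.32, and 11.3% of all probe sets rose. Each of the 13 members called higher after quantile normalization was among those called under both of these scalings. As deposited, the calls over all probe sets split into 1076 higher and 1736 lower, against 1026 higher and 936 lower after quantile normalization.

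The diets also differed in measures of the arrays themselves. The log2 ratio of the 3′ to the 5′ control probe set of Gapdh, which rises as RNA or its copies become shorter, was 0.16 to 0.38 on ketogenic arrays and -0.09 to 0.11 on control arrays. The matching ratio for actin was 0.69 to 1.02 on ketogenic arrays and 0.47 to 0.79 on control arrays. Over 9 bio and cre probe sets with AFFX-r2 names, for spike-in RNA from bacteria and a phage, the mean log2 level differed. It was 8.93 to 9.15 on ketogenic arrays and 8.54 to 8.87 on control arrays. Over all 45 spike-in probe sets the diets overlapped, with 5.08 to 5.25 on ketogenic arrays and 5.13 to 5.24 on control arrays. That mean is dim, near the log2 level of 5.17 below which probe sets were not tested. With both 3′ to 5′ ratios as covariates, limma called 0 members and 6 probe sets in all, all of them lower, and at an unadjusted p under 0.05 it had 1 member higher and 0 lower. With the bio and cre level as a covariate, it called 0 members and 24 probe sets in all, with 6 members higher and 3 lower at an unadjusted p under 0.05. The Gapdh ratio and this level do not overlap between the diets, so they cannot be told apart from diet in these arrays, and their part in the result was not tested. In those fits the large subunit median was 0.06 with either covariate, and the small subunit median was 0.10 with the ratios and 0.21 with the spike-in level. Positive signs were held by 31 of 44 members with the ratios and by 30 with the spike-in level.

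The large subunit members called follow, beginning with some near its working centres, and no link between a call and place was tested. Rplp0, the base of the stalk that recruits elongation factors, had log2 signals of 9.56, 9.59, 9.36, 9.46 and 9.46 on ketogenic arrays, against a lowest of 8.98, a median of 9.15 and a highest of 9.30 on control arrays. Every ketogenic array was above every control array. Rplp0 averaged 9.49 ± 0.09 (SD, n = 5) on ketogenic arrays and 9.13 ± 0.12 (SD, n = 6) on control arrays, a 1.28-fold higher signal (log2 fold change 0.36, SE 0.07, limma adjusted p = 0.00583). Its call held in each of the 11 fits that left out 1 array.

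Rpl12, which binds beside Rplp0 at the foot of the stalk, had log2 signals of 9.62, 9.76, 9.48, 9.67 and 9.64 on ketogenic arrays, against a lowest of 9.27, a median of 9.40 and a highest of 9.55 on control arrays. Ketogenic replicate 3, at 9.48, lay among the control arrays. Rpl12 was 1.17-fold higher (log2 fold change 0.23, SE 0.07, limma adjusted p = 0.0369), and the call held in 4 of the 11 fits that left out 1 array. Rpl3, which reaches towards the peptidyl transferase centre, had 11.16, 11.05, 10.99, 11.08 and 11.03 on ketogenic arrays, against a lowest of 10.87, a median of 10.95 and a highest of 10.98 on control arrays. The diets did not overlap for Rpl3, but the difference was the smallest of those called, 0.13 (SE 0.04, limma adjusted p = 0.0497), and it was called in 1 of 11 such fits.

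Rpl4 and Rpl39 both line the exit tunnel, and they went opposite ways. Rpl4 had log2 signals of 10.16, 10.07, 9.93, 10.13 and 9.84 on ketogenic arrays, against a lowest of 9.60, a median of 9.77 and a highest of 9.85 on control arrays. Ketogenic replicate 5 alone fell below the highest control array. Rpl4 was 1.21-fold higher (log2 fold change 0.28, SE 0.07, limma adjusted p = 0.0161), and it was called in all 11 fits that left out 1 array. Rpl39 had log2 signals of 7.30, 7.28, 7.61, 7.23 and 7.11 on ketogenic arrays, against a lowest of 7.43, a median of 7.62 and a highest of 7.72 on control arrays. Ketogenic replicate 3, at 7.61, lay within the control range and the other 4 ketogenic arrays lay below it. Rpl39 fell by 0.29 (SE 0.09, limma adjusted p = 0.0480), a 1.22-fold lower signal, and the call held in 2 of 11 such fits, those without ketogenic replicate 3 and without control replicate 6.

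Rpl5 binds 5S ribosomal RNA together with Rpl11, and the 2 partners were not called alike. Rpl5 had log2 signals of 10.59, 10.93, 10.54, 10.59 and 10.52 on ketogenic arrays, against a lowest of 10.32, a median of 10.42 and a highest of 10.52 on control arrays. Ketogenic replicate 2 stood apart from the other ketogenic arrays. The log2 fold change was 0.22 (SE 0.07, limma adjusted p = 0.0420), and without ketogenic replicate 2 it was 0.14 with an adjusted p of 0.0753. The Rpl5 call held in 3 of 11 fits that left out 1 array, those without ketogenic replicate 3 or 5 or control replicate 6. Rpl11 ranged from 9.75 to 9.98 on ketogenic arrays and from 9.89 to 10.04 on control arrays, with a log2 fold change of -0.07 (SE 0.05, limma adjusted p = 0.407). A control probe set for 5S ribosomal RNA had log2 signals of 5.73 to 6.24 on ketogenic arrays and of 3.48 to 6.25 on control arrays, where control replicate 5 was the one at 3.48.

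Rpl22, an RNA-binding protein on the outer surface of the large subunit, had log2 signals of 9.48, 9.56, 9.40, 9.42 and 9.42 on ketogenic arrays, against a lowest of 9.06, a median of 9.26 and a highest of 9.38 on control arrays. The diets did not overlap. Rpl22 was 1.17-fold higher (log2 fold change 0.23, SE 0.07, limma adjusted p = 0.0313), and the call held in 4 of 11 fits that left out 1 array.

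Rpl7, another large subunit protein, had the largest log2 fold change of the members on 1 probe set and almost none on the other. On probe set 1375788_at the log2 signals were 6.26, 6.39, 6.11, 6.21 and 6.14 on ketogenic arrays, against a lowest of 5.32, a median of 5.58 and a highest of 5.92 on control arrays. The diets did not overlap there, and the log2 fold change was 0.62 (SE 0.13, limma adjusted p = 0.00925), called in all 11 fits that left out 1 array. That probe set is dim, near the mean log2 signal of 5.17 below which probe sets were not tested. On probe set 1398917_at Rpl7 ranged from 9.88 to 10.18 on ketogenic arrays and from 9.97 to 10.05 on control arrays, with a log2 fold change of 0.03 (SE 0.05, limma adjusted p = 0.706).

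**Figure D3:**
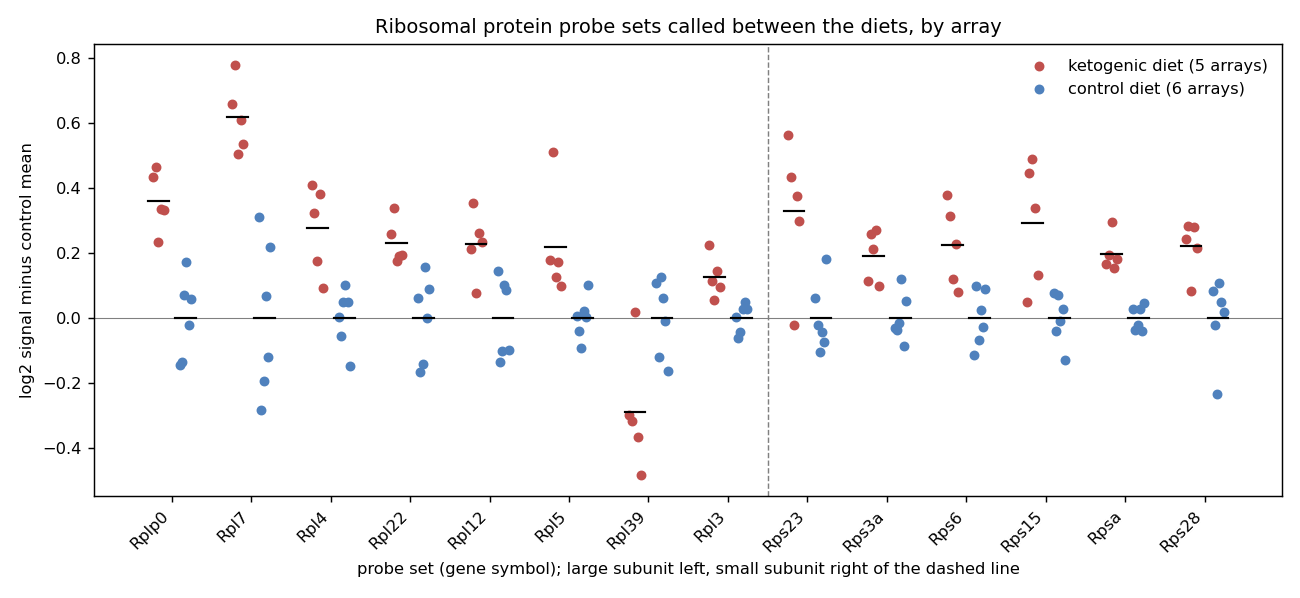
Log2 signal minus the control mean, by array, for the 8 large subunit and 6 small subunit probe sets called between the diets; short lines are group means. Ketogenic arrays (left of each pair) lie above control arrays without overlap for Rplp0, Rpl7, Rpl22, Rpl3 and Rpsa, and Rpl39 alone has a lower ketogenic mean.

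The small subunit members called follow, and no link between a call and the place of a protein in the subunit was tested. Rps23, a protein of the decoding centre, had log2 signals of 11.61, 11.48, 11.03, 11.43 and 11.35 on ketogenic arrays, against a lowest of 10.94, a median of 11.02 and a highest of 11.23 on control arrays. Ketogenic replicate 3 lay among the control arrays and the other 4 above them all. Rps23 was 1.26-fold higher (log2 fold change 0.33, SE 0.08, limma adjusted p = 0.0198). With both 3′ to 5′ ratios as covariates its log2 fold change was -0.10 (limma adjusted p = 0.98), the 1 called member whose sign turned in any setting tried.

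Rps15, a protein of the head of the small subunit, had log2 signals of 9.40, 9.80, 9.84, 9.69 and 9.48 on ketogenic arrays, against a lowest of 9.22, a median of 9.36 and a highest of 9.43 on control arrays. Ketogenic replicate 1 lay within the control range. Rps15 was 1.22-fold higher (log2 fold change 0.29, SE 0.08, limma adjusted p = 0.0252). Rps28, which sits by the exit of the mRNA channel, had 9.66, 9.70, 9.50, 9.70 and 9.63 on ketogenic arrays, against a lowest of 9.18, a median of 9.45 and a highest of 9.52 on control arrays. For Rps28 ketogenic replicate 3 lay within the control range, and the log2 fold change was 0.22 (SE 0.07, limma adjusted p = 0.0355).

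Rps6, the small subunit protein that S6 kinases phosphorylate, had log2 signals of 10.94, 10.87, 10.68, 10.79 and 10.64 on ketogenic arrays, against a lowest of 10.45, a median of 10.56 and a highest of 10.66 on control arrays. Ketogenic replicate 5 lay within the control range. Rps6 was 1.17-fold higher (log2 fold change 0.22, SE 0.06, limma adjusted p = 0.0246). Rps3a, a platform protein that contacts initiation factor eIF3, had 10.57, 10.72, 10.67, 10.73 and 10.55 on ketogenic arrays, against a lowest of 10.37, a median of 10.43 and a highest of 10.57 on control arrays. Only the highest control array reached the lower ketogenic arrays, and the log2 fold change of Rps3a was 0.19 (SE 0.05, limma adjusted p = 0.0234). Leaving out 1 array at a time, the call held in 9 of 11 fits for Rps23, 8 for Rps15, 7 for Rps6, 7 for Rps3a and 4 for Rps28.

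Rpsa, a small subunit protein also known as a laminin receptor, was measured by 3 tested probe sets that differ. On probe set 1388244_s_at the log2 signals were 8.59, 8.62, 8.72, 8.58 and 8.61 on ketogenic arrays, against a lowest of 8.38, a median of 8.43 and a highest of 8.47 on control arrays. The diets did not overlap there, and Rpsa was 1.15-fold higher (log2 fold change 0.20, SE 0.06, limma adjusted p = 0.0278), called in 6 of 11 fits that left out 1 array. Probe set 1367569_at of Rpsa had a log2 fold change of 0.16 (SE 0.09, limma adjusted p = 0.209). Probe set 1371189_x_at had -0.27 (SE 0.16, limma adjusted p = 0.273), the lowest value in the small subunit, with 7.37 to 8.52 on ketogenic arrays and 7.78 to 8.39 on control arrays. The endings _s_at and _x_at mark probe sets that can bind related transcripts, and Rpsa has processed pseudogenes, so the transcripts behind those signals are uncertain.

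**Figure D4:**
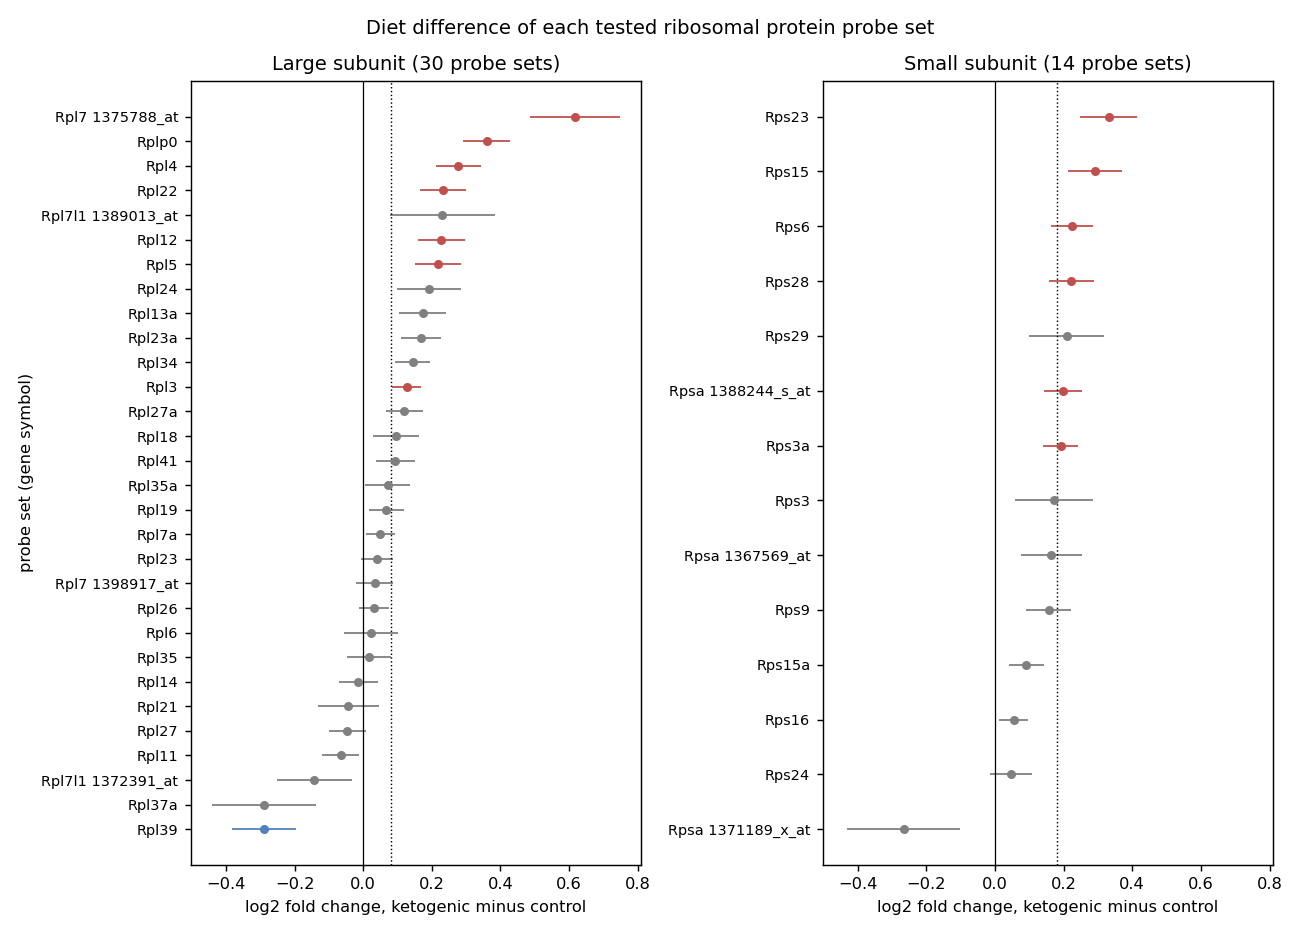
Log2 fold change, ketogenic minus control, with its standard error, for each of the 30 large and 14 small subunit probe sets tested; red marks called higher, blue called lower, grey not called, and the dotted line the median of the subunit (0.08 and 0.18). All but 7 large subunit and 1 small subunit probe sets lie above 0.

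The other 30 tested members were not called, and their diets overlapped in each case. Nearest to the threshold were Rpl23a, with a log2 fold change of 0.17 (limma adjusted p = 0.0575), Rpl34, with 0.14 (limma adjusted p = 0.0629), and Rpl13a, with 0.17 (limma adjusted p = 0.0908). Rpl37a had a mean difference as negative as that of Rpl39, -0.29, but a standard error of 0.15 (limma adjusted p = 0.20), with 9.62 to 10.73 on ketogenic arrays and 10.39 to 10.83 on control arrays. Among the small subunit members not called, Rps29 had 0.21 (limma adjusted p = 0.197) and Rps9 had 0.16 (limma adjusted p = 0.112). These and the members described by group rather than by name were picked for mention after their values had been seen.

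Some symbols chosen by the rule are not standard parts of the ribosome. Rpl7l1, a relative of Rpl7 with a role in making ribosomes, had log2 fold changes of 0.23 (limma adjusted p = 0.305) and -0.14 (limma adjusted p = 0.375) on its 2 probe sets. Rpl3l, the muscle form of Rpl3, was not tested because its signal was low, with log2 values of 2.33 to 3.09 on ketogenic arrays and 2.51 to 3.72 on control arrays. Rps27l, a relative of Rps27, was also under the testing level, with 4.44 to 5.44 on ketogenic arrays and 4.95 to 5.59 on control arrays. Rps4y2 had 2.33 to 4.41 on ketogenic arrays and 2.33 to 4.87 on control arrays, where 2.33 is the floor set on all values.

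The remaining untested members were Rpl30 and a second probe set each of Rpl14 and Rps24. Rpl30 had 4.68 to 5.24 on ketogenic arrays and 4.88 to 5.54 on control arrays. The second Rpl14 probe set had 2.75 to 4.67 on ketogenic arrays and 2.93 to 5.70 on control arrays, while the tested one had a log2 fold change of -0.01 (limma adjusted p = 0.882). The second Rps24 probe set had 4.66 to 5.30 on ketogenic arrays and 4.20 to 4.97 on control arrays, while the tested one had 0.05 (limma adjusted p = 0.621). Without the relatives Rpl3l, Rpl7l1, Rps27l and Rps4y2, the counts were 13 higher and 1 lower of 42 tested.

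Called members were found both with and without a pyrimidine run in the window around the annotated start. Among 20 tested probe sets of genes with a run in the window, 7 rose and 0 fell, with a median log2 fold change of 0.13. Among 17 of genes with an entry and no run there, 5 rose and 1 fell, with a median of 0.10. No test was made between them. Rps6 and Rpl39, printed above without a run, differ in direction, and Rpl35, with a run of 18 bases, had a log2 fold change of 0.02 (limma adjusted p = 0.871).

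Other mRNAs known for a terminal oligopyrimidine start rose in 5 of 15 tested cases and fell in 1, 33.3% and 6.67%, with a median log2 fold change of 0.15, while with 1 probe set a gene 8.85% of all genes rose and 8.04% fell. As deposited 8 rose and 0 fell, after 75th percentile centring 9 rose and 0 fell, and without 1 array 5 to 6 rose and 0 to 1 fell. The 3 with the smallest p were subunits of the initiation factor eIF3, a complex that sits on the small subunit. Eif3f ranged from 9.07 to 9.20 on ketogenic arrays and from 8.56 to 8.81 on control arrays, a log2 fold change of 0.43 (SE 0.06, limma adjusted p = 0.0018). Eif3a rose by 0.54 (SE 0.08, limma adjusted p = 0.00239) and Eif3k by 0.52 (SE 0.11, limma adjusted p = 0.0093). Also called higher were Eif3h, of the same complex, with 0.23 (limma adjusted p = 0.00948), and Gas5, with 0.49 (limma adjusted p = 0.0127). Most calls in this list thus came from a single complex, in which Eif3l, with 0.20 (limma adjusted p = 0.0876), was not called. Nap1l1 was the one called lower, with -0.28 (limma adjusted p = 0.0487). The elongation factors Eef1a1, with 0.10 (limma adjusted p = 0.221), and Eef2, with -0.14 (limma adjusted p = 0.0899), were not called, and Pabpc1, a poly(A)-binding protein, was not tested.

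Of genes that regulate the synthesis of ribosomal proteins, 3 of 28 tested rose and 4 fell, 10.7% and 14.3%, near the 8.85% and 8.04% of all genes, with a median of -0.04. With array weights 8 rose and 5 fell, with no filter on low signals 3 rose and 1 fell, and without 1 array 2 to 8 rose, the 8 without ketogenic replicate 3, and 0 to 6 fell. Of all tested probe sets, 13.4% rose with array weights, 4.88% with no filter and 13.3% without ketogenic replicate 3. Akt1, a kinase upstream of mTOR, ranged from 8.60 to 8.69 on ketogenic arrays and from 8.23 to 8.49 on control arrays, a log2 fold change of 0.30 (limma adjusted p = 0.00732). Cnbp, a protein known to bind oligopyrimidine mRNAs, rose by 0.20 (limma adjusted p = 0.0134). Rps6kb1, the S6 kinase that phosphorylates Rps6, fell by 0.38 (limma adjusted p = 0.0242), with 6.45 to 6.91 on ketogenic arrays and 6.94 to 7.34 on control arrays. Larp1 had -0.15 (limma adjusted p = 0.0863) and Mtor -0.02 (limma adjusted p = 0.879).

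Of ribosome biogenesis genes, 3 of 37 tested rose and 3 fell, 8.11% each, near the 8.85% and 8.04% of all genes, with a median of 0.05. The balance moved with the scaling, since 1 rose and 7 fell as deposited and 1 rose and 5 fell after 75th percentile centring, and without 1 array 0 to 5 rose and 1 to 6 fell. Ncl, nucleolin of the nucleolus, rose by 0.29 (limma adjusted p = 0.0198). Polr1d, a subunit shared by RNA polymerases I and III, fell by 0.37 (limma adjusted p = 0.0081), and Bysl, which serves small subunit maturation, fell by 0.49 (limma adjusted p = 0.0295). Fbl, the methyltransferase fibrillarin, had 0.10 (limma adjusted p = 0.539), Ubtf, a factor for ribosomal RNA transcription, had 0.00 (limma adjusted p = 0.98), and Npm1 was not tested.

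Factors that work on the ribosome had 3 of 10 tested genes higher and 2 lower, 30% and 20%. Of all genes, 8.85% were higher and 8.04% lower. The median over these factors was 0.02, and without 1 array 1 to 2 of them were higher and 0 to 2 lower. With the 3′ to 5′ ratios as covariates, 0 genes of these 4 lists were called in either direction. Zfp622, a factor of late large subunit maturation, rose by 0.52 (limma adjusted p = 0.00549), Rpn2, of the oligosaccharyltransferase at the ribosome, rose by 0.23 (limma adjusted p = 0.0453), and Sec61a1, the channel of the translocon, fell by 0.28 (limma adjusted p = 0.0350). Rack1, a ribosomal protein whose symbol is outside the rule, had 0.15 (limma adjusted p = 0.0892), and Fau was not tested.

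Some markers of other cells also differed between the diets, where 8.85% of all genes rose and 8.04% fell. Of 5 tested red blood cell genes, 4 fell and 1 rose, and their summed signal was 492 to 590 on ketogenic arrays and 1319 to 1790 on control arrays. Hbb, a globin, had log2 signals of 6.20 to 6.95 on ketogenic arrays and 9.53 to 10.19 on control arrays. Of 8 choroid plexus genes, 5 fell and 0 rose, with sums of 567.7 to 1292 on ketogenic arrays and 930 to 2599 on control arrays. Ttr, in that list, was not called (limma adjusted p = 0.78) and stood at a log2 signal of 10.63 on control replicate 1. It ranged from 6.50 to 8.66 on ketogenic arrays and from 6.35 to 10.63 on control arrays. None of these tested marker genes was at the floor of log2 2.33 on any array.

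Neuronal genes had 1 of 8 higher and 0 lower. Their sums were 9864 to 11434 on ketogenic arrays and 9392 to 10253 on control arrays. Camk2a was the 1 called, with a log2 fold change of 1.34. It had log2 signals of 10.41 to 10.93 on ketogenic arrays and 8.38 to 10.21 on control arrays. The median over the 8 was 0.04, and 4 of them were positive. Hippocampal neuron genes had 1 of 5 higher and 0 lower. Prox1, a marker of dentate granule neurons, was measured at 7.84 to 8.21 on ketogenic arrays and 8.03 to 8.46 on control arrays, above the testing level in both diets. Astrocyte genes had 2 of 6 lower, microglial genes 2 of 5, and oligodendrocyte, vessel and meningeal genes 1 of 6 each, with 0 higher in these lists. A single call in lists this short is not set apart from the 8.85% of all genes that rose and 8.04% that fell. The part of these marker differences in the ribosomal protein result was not tested.

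Among the 13 members called higher, ketogenic replicate 3 was the lowest of the 5 ketogenic arrays for 7, and it was the highest of them for Rpl39. It also had the lowest Gapdh 3′ to 5′ log2 ratio of the ketogenic arrays, 0.16. Without it, 15 members rose (33.3%) and 2 fell, and 13.3% of all tested probe sets rose. Without ketogenic replicate 2 or without ketogenic replicate 4, 3 members rose in each case, Rplp0, Rpl4 and Rpl7 on its dim probe set, and 0 fell. These were 6.82% and 6.67% of the tested members, where 3.57% and 3.41% of all tested probe sets rose. Without ketogenic replicate 1, 7 members rose, and without control replicate 2, 3 or 5 it was 5, 6 and 7 members. In the same order, 5.14%, 5.3%, 5.56% and 5.61% of all tested probe sets rose. The share called higher over all probe sets thus moved as well.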

How the data were processed

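Linear intensities, 1 value a probe set, were deposited for 11 arrays. How the authors made these intensities is not given in the sources used here, and scanner files were not used, so the number of arrays limits the precision. Array medians of the log2 values, computed here, spanned 0.238, above a limit of 0.1, so intensities were quantile normalized. Values under the 5th percentile, a signal of 5.016, were set to it before log2 was taken. Neither the 57 control probe sets nor the dimmest 25% by mean signal entered the test of 11899. The two-sided contrast, ketogenic minus control, came from limma 3.58.1 (R 4.3.3), with lmFit followed by eBayes under a trended variance, with Benjamini-Hochberg adjustment at 0.05, tested on simulated data.

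Symbols came from the platform annotation, in which 12789 probe sets had 1 symbol and 312 several. Identifiers of 42 of the 44 symbols were in a RefSeq gene table of assembly GRCr8, and those of Rpl37a and Rps9 were not. Array medians of deposited intensities were 79.9 to 87.9 on ketogenic arrays and 89.2 to 94.2 on control arrays. Correlations of log2 values were 0.949 to 0.964 among ketogenic arrays, 0.958 to 0.968 among control arrays and 0.941 to 0.961 between diets.

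The members and lists were chosen with earlier results of these data known. Named were all called members, member genes whose probe sets differ in sign, relatives of ribosomal protein genes, untested members, the 3 genes with the smallest p in each pathway list, and a set list of 12 further genes, of which 1 is not reported here. Lists used 1 probe set a gene, the tested one with the highest mean. The alternatives were 25, made up of other scalings, filters, floors, variance models and thresholds, array weights, covariates, the replicate number as a block, and leaving out each array. The bio and cre spike-in covariate is an addition made with the data in view.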

Additional observations from a re-analysis of the deposited data

Results flagged for a closer look

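In 92 groups of arrays examined for a single array far from the rest, 2 stood out, where chance gives about 1 in 20, or 4.6. Rpl5 was at a log2 signal of 10.93 on ketogenic replicate 2, and the nearest ketogenic array was at 10.59. Rpl11, which binds 5S ribosomal RNA with Rpl5, was at 10.04 on control replicate 4, and the nearest control array was at 9.94.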

How the results depend on the processing

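Counts of ribosomal protein probe sets called depended on the setting, and the sign of a called member did so in 1 case. Members called higher, 13 after quantile normalization, were 28 as deposited, 30 after centring on the 75th percentile, 6 with no filter on low signals, 5 with no variance trend, and 0 with either the 3′ to 5′ ratios or the bio and cre level as covariates. The member called lower, Rpl39, was not called (0) with no filter, with no variance trend, or with the 3′ to 5′ ratios, all spike-ins or the bio and cre level as covariates. All calls, 1962, became 3136 with array weights, 3070 at a threshold of 0.1, 6 with the 3′ to 5′ ratios and 24 with the bio and cre level. The 9 bio and cre probe sets used, those with AFFX-r2 names among 45 spike-in probe sets, were picked after several subsets had been looked at. Those subsets gave widely different counts. All 45 together, with a mean near the testing level, gave 12 members higher. The large subunit median was 0.18 as deposited and 0.22 after 75th percentile centring, and the small subunit median was 0.29, 0.32, and 0.10 with the 3′ to 5′ ratios. Rps23 turned to -0.10 with those ratios. Leaving out 1 array at a time gave 3 to 15 members higher, 0 to 2 lower, 797 to 3163 calls in all, and medians of 0.063 to 0.12 in the large and 0.14 to 0.20 in the small subunit. With the replicate block, 11 members rose, 1 fell and 1816 probe sets were called in all, with medians of 0.08 and 0.20. The labels do not say that the replicate numbers pair the arrays. Deviations of arrays with the same number correlated by 0.009 to 0.077, and 2 of 5 ketogenic arrays correlated best with their own number. These values cannot decide whether the numbers mark a pairing. For the 14 called members, 229 of 349 values under alternatives kept direction and call, 119 lost the call and 1 changed sign. For 7 named probe sets that were not called, 4 of 175 values gained a call and 14 changed sign, in 6 of the 7. The cause was not tested.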
